A study of Homo sapiens with 12 samples.

Results

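The effect of artesunate on RNA levels was compared between U251 and U87, established lines from human glioma, using all 12 of the 12 libraries of the series. The 4 groups of 3 libraries were U251 in control medium, U251 with 180 µM artesunate, U87 in control medium and U87 with 24.08 µM artesunate. The labels give 24 h of treatment and day 9, so the dose differed with the line, and an effect of the line and an effect of the dose cannot be told apart. The labels name no transgene or added allele, describe the control only as medium, do not state a solvent control, and name artemisinin in the extraction text where the treatment label has artesunate. Each line is 1 culture model, and nothing says whether the replicates were separate cultures, so p-values measure the spread between these libraries, which may be technical. For each gene the difference was the log2 fold change (artesunate against control) in U251 minus that in U87, tested as 1 contrast over the 12 libraries.

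Artesunate is a derivative of artemisinin whose peroxide bridge is opened by ferrous iron or heme, which yields reactive radicals, and cells exposed to it are known to mount oxidative and amino acid stress responses. ATF4 is the transcription factor of the integrated stress response and raises genes of amino acid uptake and synthesis, NRF2 raises antioxidant genes, and the hypoxia-inducible factors raise genes of glucose uptake, glycolysis and blood vessel growth when oxygen is low or their hydroxylases are inhibited. E2F factors drive the genes of DNA replication.

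The promoter elements below come from gene lists that differed between the lines and held the motif more often than all tested genes. The hypoxia list and the integrated stress response list were drawn up as targets of hypoxia factors and ATF4, and E2F factors drive replication genes. Higher shares of the matching motifs in these lists follow in part from that choice and are not a result of these data. Promoters were windows of 300 bases (250 before to 50 after the start site) from RefSeq on GRCh38.p14, matched by symbol for 11605 of the 17150 tested genes, and each motif was searched on both strands. The hypoxia core ACGTG stood in 64.3% of the 28 matched promoters of the hypoxia list and in 36.4% of the 22 of glycolysis, against 26.5% of the promoters of all tested genes and 21.6% of the 27305 promoters of the table. It stood in 59.1% of the 22 matched promoters of splicing factors and 55.6% of the 27 of ribosome biogenesis. The other core, GCGTG, stood in 53.6% of the hypoxia promoters and 45.5% of those of glycolysis, against 49.9% over all tested genes and 36.3% over the table. Each element is printed on the strand that reads the motif 5′ to 3′, with the motif in capitals. Hypoxia list members that rose in U251 and fell in U87, then 1 called in U251 only and 1 that rose alike:
CA9 (chr9:35673900-35673924, minus strand): tacgggctgtACGTGcattggaaac
PPFIA4 (chr1:203026363-203026387, plus strand): cgctctcgtcACGTGcccggacccg
ANGPTL4 (chr19:8363911-8363935, minus strand): accgtgggagACGTGactcttcttt
BNIP3 (chr10:131982042-131982066, minus strand): cacgcgccgcACGTGccacacgcac
DDIT4 (chr10:72273789-72273813, plus strand): aacgttgcttACGTGcgcccggagt
P4HA1 (chr10:73096938-73096962, plus strand): agccctcgctACGTGagctcgatca

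The ATF4 and C/EBP element TGATGNAA stood in 28.2% of the 39 matched promoters of the integrated stress response list (ATF4 targets), against 1.77% over all tested genes and 3.67% over the table. The 4 members below rose in U87 more than in U251 (ASNS), in both with the size unresolved (CHAC1), alike (AARS) and in U251 only (SLC7A1), so the same motif stood near the start sites of genes of different classes:
ASNS (chr7:97872459-97872486, minus strand): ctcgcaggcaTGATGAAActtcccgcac
CHAC1 (chr15:40953252-40953279, minus strand): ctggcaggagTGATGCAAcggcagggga
AARS (chr16:70289676-70289703, plus strand): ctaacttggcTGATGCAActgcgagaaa
SLC7A1 (chr13:29595664-29595691, minus strand): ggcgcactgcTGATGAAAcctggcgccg

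The E2F element TTTNNCGC stood in 60% of the 40 matched promoters of the DNA replication list, against 10.4% over all tested genes and 6.9% over the table. The first 3 genes below fell more in U87 than in U251 or only in U87, and PCNA fell alike:
MCM7 (chr7:100101389-100101416, minus strand): gggggcgacgTTTCGCGCcaatttcggt
UHRF1 (chr19:4909477-4909504, minus strand): ctctgattttTTTCCCGCgaaaactcgg
CDT1 (chr16:88803744-88803771, minus strand): tcccgccaaaTTTCCCGCgggcgccctg
PCNA (chr20:5126664-5126691, plus strand): acgcacgcctTTTCCCGCccctgacgct

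The antioxidant element TGANNNNGC was also searched and is not printed. It stood in 45.8% of the 24 matched promoters of the NRF2 list, against 43% over all tested genes and 42.1% over the table. A match is a description of the letters and not of binding. A longer palindrome CACGTG also counts as ACGTG. Shares by class of gene, in place of list, were as follows. ACGTG stood in 30.6% of the 219 matched promoters of genes that rose in U251 and fell in U87, and in 26.7% of the 180 of genes that did the opposite. TGATGNAA stood in 10.6% of the 94 promoters of genes that rose in both lines by different amounts. It stood in 0.457% (1 promoter) of the first of these sets and 1.11% (2 promoters) of the second. Genes that rose alike had 5.56% of 54, those down and up in U251 only 3.52% and 2.56%, those down and up in U87 only 1.12% and 2.02%, and all tested genes 1.77%. Median promoter GC content was 65.3% in the set of different amounts and 70% and 63.7% in the 2 opposite sets. Its part in these shares was not tested.

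Libraries held 13631985 to 17314284 counts, and 17150 of 58302 genes passed the filter on low counts. Levels are CPM, the counts of a gene per 1000000 counts of its library after TMM scaling. Libraries of a group correlated across genes with Pearson's r of 0.985 to 0.987, and 0.972 to 0.981 in U87 artesunate. VIM, the glial and mesenchymal filament, was high in both lines (group means 3869 to 5891 CPM), while members of the glial list differed both ways between the lines: GFAP and SOX2 were at 67.2 and 249 CPM in U251 controls and at 1.01 and 0 CPM in U87 controls, CHI3L1 and OLIG2 at 0 and 0.146 CPM against 20.6 and 3.16 CPM, and SLC1A3 at 60.7 and 61.1 CPM. AQP4, MOG, MAG, AIF1 and CD3E, defining markers of mature astrocytes, oligodendrocytes, microglia and T cells, were at 0 in every library, and PTPRC reached at most 0.256 CPM. CD68, a lysosomal protein on the microglia list, was at 74.4 CPM in U87 controls and 33.4 CPM with artesunate (1.53 and 4.43 CPM in U251). The 5 fibroblast or mesenchymal markers summed to 2102 to 2222 CPM in U87 controls and 655 to 982 CPM with artesunate (1470 to 1574 and 1253 to 1505 CPM in U251), with COL1A1 lower and DCN at 77.7 and 124 CPM. The part of these in the results was not tested. In bulk RNA a change in the mix of cell states and a change of RNA per cell cannot be told apart.

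Artesunate effects differed between the lines for 8478 of 17150 genes (49.4%; adjusted p under 0.05), with 4132 above 0 (24.1%) and 4346 below 0 (25.3%). Of these 2934 differed at least 2-fold above 0 and 2160 at least 2-fold below 0. In U251 701 genes rose (4.09%) and 730 fell (4.26%), and in U87 5000 rose (29.2%) and 5005 fell (29.2%), from 1 fit with a shared estimate of spread. DESeq2 called 2328 genes in U251 and 10120 in U87. With limma-voom and a spread for each line the calls numbered 3101 in U251 and 9367 in U87. The 1431 U251 calls of the reported fit changed with the libraries used. They numbered 774, 671 and 693 without U251 control 1, 2 and 3, and 652, 680 and 1047 without U251 artesunate 1, 2 and 3. Without U87 control 1, 2 and 3 they numbered 1375, 1174 and 1091, and without U87 artesunate 1, 2 and 3 they numbered 1643, 2582 and 1369. Leaving out a library also leaves fewer in its group, and the part of this in the counts was not tested. Among the 1008 genes called in both lines, 485 moved the same way and 523 opposite ways, a same-sign share of 48.1%.

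The size of the difference moved with the GC content of the genes. Over 10 bins of genes of rising GC content the median effect went from -0.22 to 0.30 in U251 and from 0.77 to -1.43 in U87 (log2), so the median difference went from -0.99 to 1.72. Called differences below 0 fell from 61.9% to 0.351% of the genes of a bin and those above 0 rose from 1.58% to 71.3%. Across 17089 genes with a GC value, Pearson's r with GC content was 0.286 for the U251 effect, -0.583 for the U87 effect and 0.624 for the difference, as a description of genes that share the same 12 libraries. By library, r of the log2 level against its own line's controls with GC content was 0.189 to 0.363 in U251 artesunate, -0.639 to -0.488 in U87 artesunate and -0.242 to 0.168 in the controls. The part of GC-dependent recovery of fragments in these effects was not tested. A fit with smooth offsets for the GC content and length of each gene in each library is given beside the results, and is called the GC-corrected fit. It called 2400 differences above 0 and 2769 below, 3598 genes were called with the same sign in both fits and 302 with opposite signs. Of 1140 genes called in both lines in that fit 885 moved the same way (77.6%). The offsets take out each library's trend with GC content whatever its source, including any that came from treatment. The lines sloped in opposite ways, so taking out these trends favours calls of the same sign. The share therefore does not show which fit is nearer the truth.

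**Figure D1:**
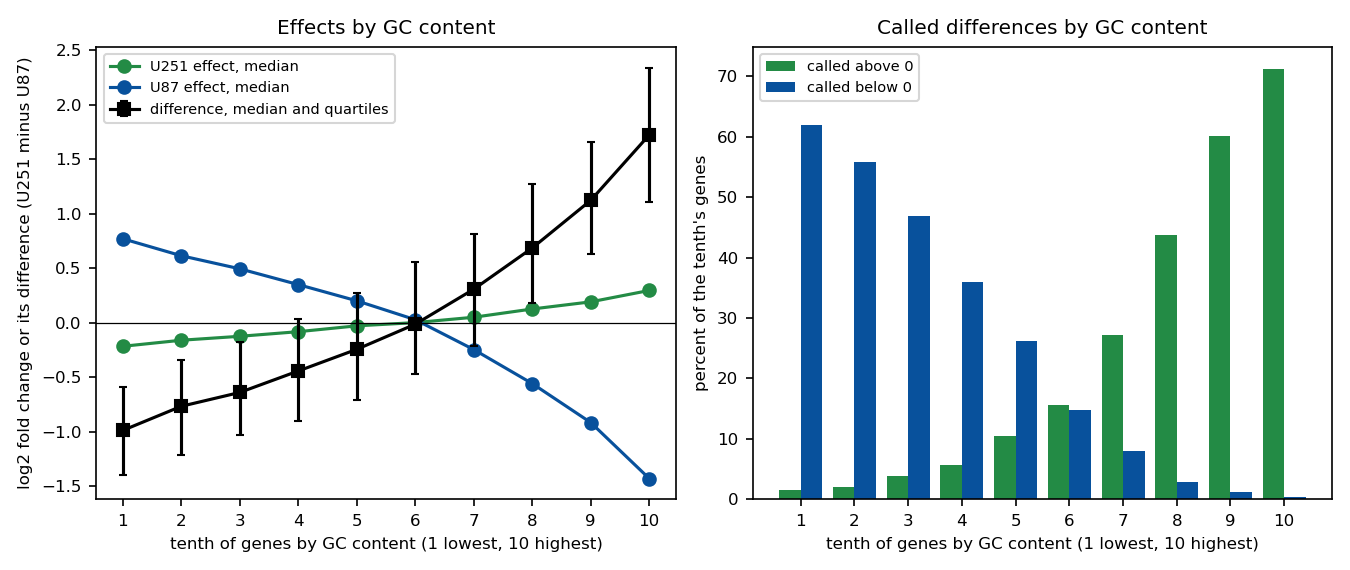
Left, median artesunate effect in U251 and U87 and median difference with its quartiles (log2) in each of 10 bins of 17089 genes by GC content; right, percent of each bin with a called difference above or below 0. The median difference runs from -0.99 in the lowest bin to 1.72 in the highest, and the 2 lines slope in opposite ways.

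Genes that moved in opposite ways numbered 523. Of these 287 rose in U251 and fell in U87, and 236 fell in U251 and rose in U87, with 42 changed at least 2-fold in both lines. Their median GC content was 58.1% and 40.3%, and the GC-corrected fit held 142 of the 523 as opposite (86 and 56, of 255 in all). In 510 of the 523 every artesunate library lay beyond every control in both lines. Calls from 3 libraries a group favour such separation. It also held in the called lines of 172 of the 173 alike genes and 6767 of the 6962 called in U87 only. Most were well expressed, with 474 at 5 CPM or more in the higher group of each line and 7 below 1 CPM in U251. The number varied when a library was dropped. In U251, dropping control 1, 2 or 3 gave 234, 180 or 176, and dropping artesunate 1, 2 or 3 gave 164, 173 or 407. In U87, dropping control 1, 2 or 3 gave 525, 363 or 333, and dropping artesunate 1, 2 or 3 gave 593, 1280 or 455. Each such fit also had fewer libraries in the group concerned, and how far this lowered the counts was not tested.

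**Figure D2:**
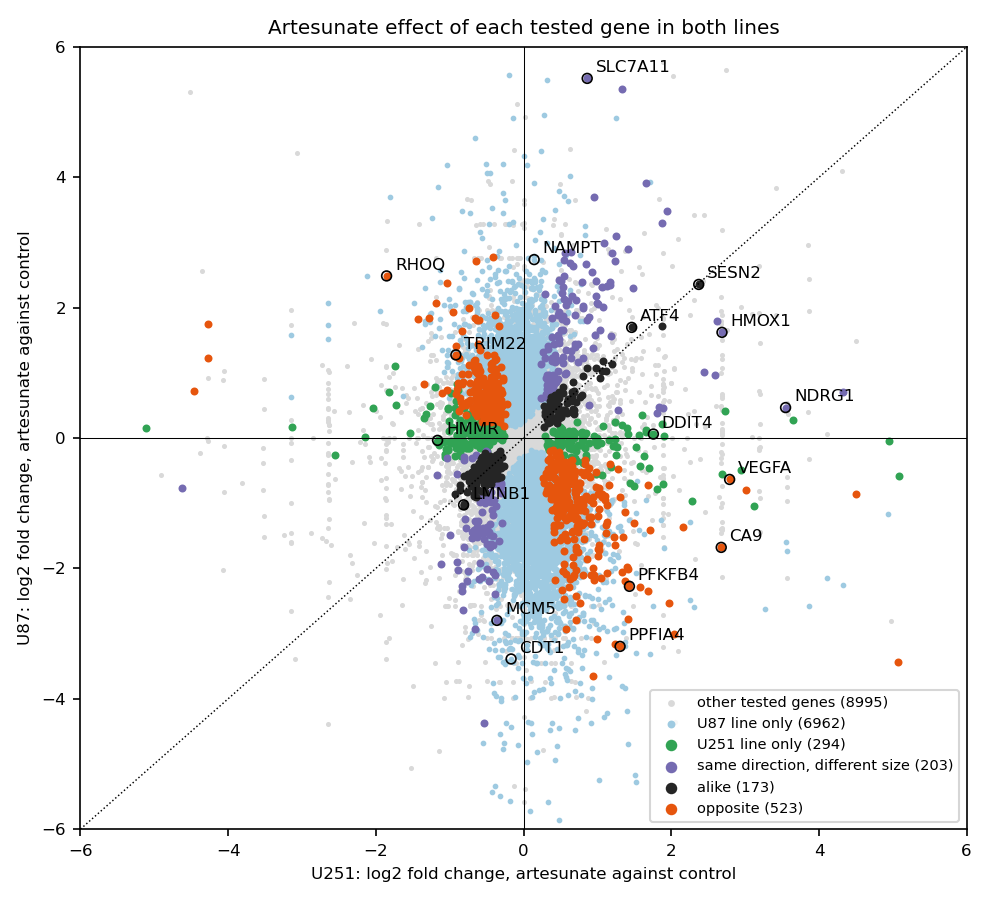
Each point is 1 of 17150 tested genes, with the log2 fold change of artesunate against control in U251 on the x axis and in U87 on the y axis, coloured by class (35 genes lie outside the axes). CA9, PFKFB4 and PPFIA4 lie low on the right, RHOQ and TRIM22 high on the left, and SESN2 lies on the dotted line of equal change.

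Among genes that rose in U251 and fell in U87, CA9 (ENSG00000107159, chromosome 9, 35673856 to 35681159, GRCh38), a membrane carbonic anhydrase that moves acid out of cells, stood at 25.1, 25.9 and 27.7 CPM in the U251 controls and 223, 157 and 123 CPM with artesunate. In U87 it stood at 424, 350.1 and 431 CPM in the controls and 104, 207 and 65.4 CPM with artesunate. No artesunate library overlapped its controls in either line, which the rule for naming genes required of every called line. The U87 artesunate libraries spread more than 3-fold. The log2 fold change was 2.68 ± 0.36 (± standard error; adjusted p = 0.0011) in U251 and -1.68 ± 0.34 (adjusted p = 0.0012) in U87, a difference of 4.35 ± 0.49 (adjusted p = 3.6e-05), or 3.20 in the GC-corrected fit.

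PFKFB4 (ENSG00000114268, chromosome 3, 48517684 to 48562015) makes and breaks fructose 2,6-bisphosphate, the activator of glycolysis. It stood at 48.6, 50.9 and 50.7 CPM in the U251 controls and 132, 145 and 129 CPM with artesunate. In U87 the controls held 216, 219.7 and 209.9 CPM and the artesunate libraries 42.5, 52.7 and 38.1 CPM. Its 4 groups did not overlap within a line, as the naming rule required. The difference was 3.71 ± 0.15 (adjusted p = 1.5e-07), or 2.85 in the GC-corrected fit. ANGPTL4, a secreted inhibitor of lipoprotein lipase, went from 94.4, 84.3 and 92.8 to 252, 297 and 178 CPM in U251 and from 175, 187 and 158 to 27.6, 64.4 and 16.98 CPM in U87, a difference of 3.68 ± 0.52 (adjusted p = 0.00015; GC-corrected 2.16). TCAF2C, a close copy of TCAF2 whose counts are uncertain because reads may be shared, had the largest smaller change of the class, 2.04 ± 0.18 in U251 and -3.01 ± 0.19 in U87.

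VEGFA (ENSG00000112715, chromosome 6, 43770184 to 43786487), the blood vessel growth factor, held 57.2, 57.8 and 54.7 CPM in the U251 controls and 400.3, 419 and 355 CPM with artesunate. U87 had 602, 673 and 658 CPM in the controls and 514, 477 and 254 CPM with artesunate, where artesunate 3 was lowest. The effects were 2.79 ± 0.21 and -0.64 ± 0.20 (adjusted p = 0.015 in U87), with a difference of 3.43 ± 0.29 (adjusted p = 5.8e-06). In the GC-corrected fit the U87 effect was -0.22 and the gene was called in U251 only. PPFIA4, a liprin scaffold protein, had levels in U251 of 2.18, 1.40 and 2.38 CPM without and 5.09, 4.23 and 5.44 CPM with artesunate, and fell in U87 from 46.2, 46.3 and 46.5 to 5.54, 5.26 and 4.36 CPM. Its difference of 4.50 ± 0.26 (adjusted p = 9.2e-07; GC-corrected 3.39) was the highest of the hypoxia list.

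In the other direction, RHOQ (ENSG00000119729, chromosome 2, 46541806 to 46583121), a small GTPase, held 30.2, 63.1 and 61.6 CPM in the U251 controls and 11.3, 11.4 and 20.1 CPM with artesunate. In U87 it held 20.5, 18.5 and 20.1 CPM in the controls and 164, 77.4 and 90.1 CPM with artesunate. The groups did not overlap in either line, as the naming rule required, and U251 control 1 lay below its 2 fellows. The difference was -4.34 ± 0.49 (adjusted p = 3.6e-05), or -3.86 in the GC-corrected fit. TRIM22 (ENSG00000132274, chromosome 11, 5689689 to 5737089), an interferon-induced ubiquitin ligase, held 29.2, 25.2 and 29.4 CPM in the U251 controls and 13.8, 12.6 and 17.98 CPM with artesunate, and 30.8, 24.7 and 26.5 CPM in the controls and 69.6, 59.1 and 69.9 CPM with artesunate in U87. Its difference was -2.19 ± 0.20 (adjusted p = 1.1e-05). SAMD9L, an interferon-induced antiviral gene, and RNF114, a ubiquitin ligase, differed by -2.32 ± 0.26 (adjusted p = 3.3e-05) and -2.17 ± 0.32 (adjusted p = 0.0002). All 4 kept opposite calls in the GC-corrected fit, with differences of -3.86, -1.60, -1.52 and -2.12.

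**Figure D3:**
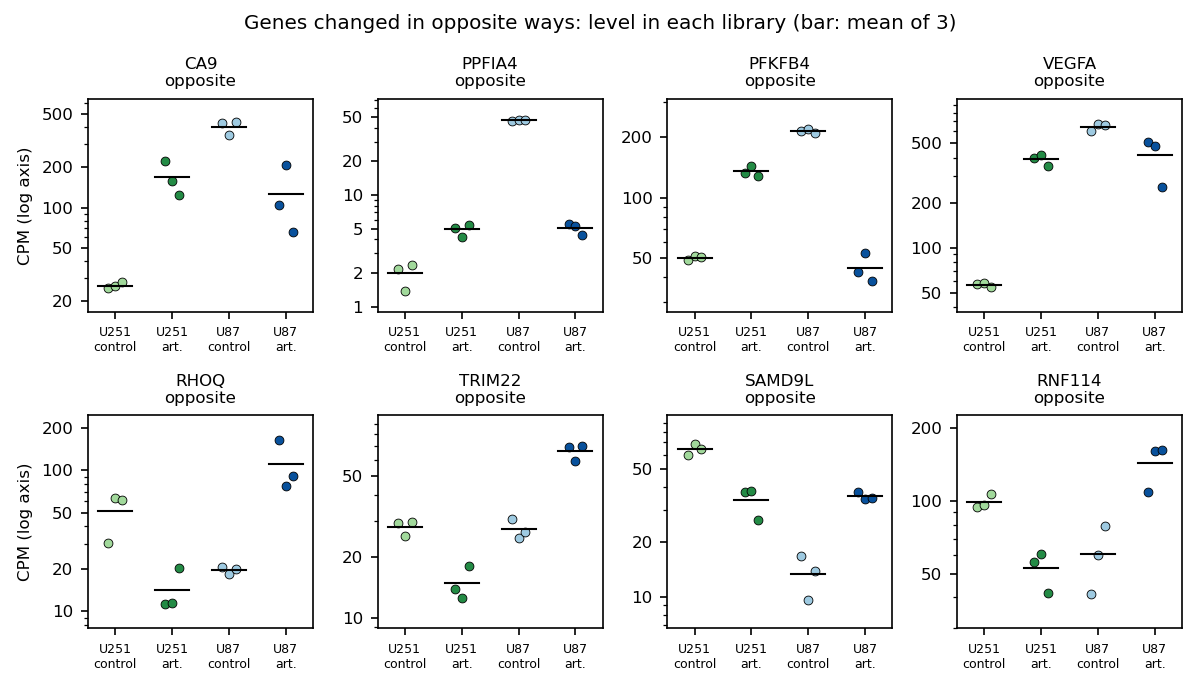
Level in each of the 12 libraries (CPM, log axis; points are libraries, bars are means of 3) of 8 genes called in opposite directions. CA9, PPFIA4, PFKFB4 and VEGFA rise in U251 and fall in U87, and RHOQ, TRIM22, SAMD9L and RNF114 do the reverse.

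The hypoxia targets outside glycolysis were the list with the most opposite members. Of 35 tested members (36 listed), 24 differed above 0 and 5 below, against 24.1% and 25.3% of all genes. In U251 27 rose and none fell (nor by DESeq2 or at an unadjusted p under 0.05), and in U87 11 rose and 14 fell, with medians of 0.87 and 0.06 and a median difference of 0.99 (all tested genes 0, 0 and -0.05). The U251 rises were 77.1%, against 4.09% of all tested genes. In U87 31.4% rose and 40% fell, against 29.2% each. Opposite calls numbered 11 of 35, against 3.05% of all tested genes, and all were up in U251. All 11 had a higher mean level in U87 controls than in U251 controls, as did 76.7% of the 287 opposite genes up in U251 and 50.1% of all tested genes. The GC-corrected fit gave 26 above 0 and 1 below, a median difference of 0.79, and 6 of the 11 as opposite. Of the members, EGLN3, a prolyl hydroxylase that marks hypoxia-inducible factors for decay, rose from 10.1, 7.61 and 8.39 to 114, 108 and 105 CPM in U251, and in U87 went from 1.63, 1.03 and 0.497 to 1.09, 1.97 and 0.833 CPM. Its difference was 3.37 ± 0.47 (adjusted p = 0.00012; GC-corrected 3.35). BNIP3, a mitophagy receptor, was opposite (0.62 ± 0.09 in U251 and -0.37 ± 0.09 in U87, but called in U251 only with correction), while its relative BNIP3L rose in both and more in U87, with a difference of -1.22 ± 0.21 (adjusted p = 0.00057) that was not called in the GC-corrected fit (-0.44).

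Glycolysis followed the same order. Of 24 tested members 19 differed above 0 and none below (also none by DESeq2 or at an unadjusted p under 0.05). In U251 15 rose and none fell (DESeq2 none, unadjusted 1), and in U87 4 rose and 16 fell (medians 0.70 and -0.58, median difference 1.16). The share above 0 was 79.2%, against 24.1% of all tested genes, of which 25.3% were below. Rises in U251 were 62.5%, against 4.09%. In U87 16.7% rose and 66.7% fell, against 29.2% each. The GC-corrected fit gave 14 above and 1 below, with medians of 0.57 in U251, -0.20 in U87 and 0.59 for the difference, and held 5 of 10 opposite calls. SLC2A1, the glucose transporter GLUT1, rose from 376, 384 and 374 to 811, 813 and 566 CPM in U251 and fell from 241, 270.3 and 244 to 44.4, 82.8 and 48.7 CPM in U87. Its difference was 3.05 ± 0.29 (adjusted p = 1.4e-05; GC-corrected 2.44). SLC16A3, the lactate exporter, had the largest difference of the list, 3.96 ± 0.48 (adjusted p = 5.6e-05; GC-corrected 2.51, where it was opposite), and fell in U87 while its U251 effect of 1.03 ± 0.33 was not called (adjusted p = 0.081). HK2, the hexokinase that traps glucose, rose in both, by 1.89 ± 0.09 in U251 and 0.46 ± 0.09 in U87. GAPDH, a glycolytic enzyme often used as a reference gene and one with many processed copies in the genome, was opposite (0.49 ± 0.11 and -0.66 ± 0.11) but differed by 0.08 (adjusted p = 0.56) in the GC-corrected fit.

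Genes called in U251, not called in U87 and different between the lines numbered 294, with 113 up and 181 down. In 229 of them (78 up and 151 down) the 95% interval of the U87 effect also lay within 1.5-fold of no change. The GC-corrected fit held 46 of the 294 in this class (209 in all). Without U251 control 1, 2 or 3 the number was 179, 172 and 169, and without U251 artesunate 1 or 2 it was 161 and 167. PPP1R3C (ENSG00000119938, chromosome 10, 91628442 to 91633054), a glycogen-targeting subunit of protein phosphatase, held 8.999, 7.24 and 8.20 CPM in the U251 controls and 33.004, 31.3 and 25.2 CPM with artesunate. U87 held 85.8, 74.8 and 77.9 CPM in the controls and 90.5, 92.9 and 92.2 CPM with artesunate. The naming rule for this class required separate U251 groups and a U87 interval within 1.5-fold. The effects were 1.87 ± 0.12 (adjusted p = 7.2e-06) and 0.21 ± 0.11 (adjusted p = 0.12), a difference of 1.66 ± 0.16 (GC-corrected 2.25). RDH10, a retinol dehydrogenase, and HTR7, a serotonin receptor, rose by 1.40 ± 0.11 and 1.34 ± 0.12 in U251, with U87 effects of 0.16 ± 0.11 and 0.19 ± 0.11, and all 3 kept their class in the GC-corrected fit.

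DDIT4, an inhibitor of mTORC1 that both hypoxia and ATF4 raise, went from 165, 160.2 and 149.6 to 565, 570.2 and 469 CPM in U251. In U87 it had 250.3, 292 and 261 CPM in the controls and 224, 377 and 237 CPM with artesunate, overlapping groups in which artesunate 2 was highest. Its difference was 1.70 ± 0.24 (adjusted p = 0.00015), and in the GC-corrected fit 0.72, with the U87 effect at 0.87. HMMR (ENSG00000072571, chromosome 5, 163460203 to 163491945), a spindle and hyaluronan-binding protein, held 112, 117 and 114 CPM in the U251 controls and 50.7, 48.4 and 54.05 CPM with artesunate. U87 held 97.5, 97.6 and 89.9 CPM in the controls and 105, 85.5 and 87.8 CPM with artesunate, with overlapping groups. The difference was -1.13 ± 0.13 (adjusted p = 3.6e-05), and -0.20 (adjusted p = 0.2) in the GC-corrected fit, where the U87 effect was -0.74. CEP41, a cilium protein, KIF18A, a mitotic kinesin, and PRTFDC1, a relative of a purine salvage enzyme, also fell in U251 (-1.17 ± 0.09, -1.08 ± 0.13 and -1.15 ± 0.17), and in the GC-corrected fit their differences were -0.66, -0.12 and -0.22.

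Mitosis and G2/M genes made up part of this class. Of 42 tested members 36 fell in U251 and 25 fell in U87, none rose (DESeq2 none, unadjusted 0 in U251 and 1 in U87), 16 were called in U251 only, 12 were alike, and 19 differed below 0 and 6 above. Of all tested genes 4.26% fell in U251 and 29.2% in U87 (85.7% and 59.5% of the list), 1.71% were called in U251 only and 1.01% were alike. The list's shares below and above 0 were 45.2% and 14.3%, against 25.3% and 24.1%. The median was -0.71 in U251 and -0.41 in U87, and the median difference of -0.28 turned to 0.16 in the GC-corrected fit, with 7 below and 15 above. TOP2A, the topoisomerase of dividing cells, fell from 977, 1027 and 1028 to 502, 507 and 523 CPM in U251 and had 543, 478 and 475 CPM in the controls and 512, 451 and 493 CPM with artesunate in U87. Its difference was -0.95 ± 0.10 (adjusted p = 2.9e-05) and -0.17 (adjusted p = 0.043) with correction. TPX2, a spindle assembly factor, fell by 0.65 ± 0.07 on the log2 scale in U251 and by 0.66 ± 0.07 in U87, and CENPA, the centromere histone, fell in U87 only (-1.35 ± 0.16, with -0.01 ± 0.15 in U251).

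Genes called in U87, not called in U251 and different between the lines numbered 6962, with 3533 up and 3429 down. Of these 3942 (2451 up and 1491 down) had a U251 interval within 1.5-fold of no change, 318 were below 1 CPM in U251, and 2886 kept the class in the GC-corrected fit (4020 in all). NAMPT (ENSG00000105835, chromosome 7, 106248285 to 106286326), the rate-limiting enzyme of NAD salvage, held 143, 141 and 136 CPM in the U251 controls and 150.1, 154 and 159 CPM with artesunate. U87 held 798, 702 and 686 CPM in the controls and 5308, 4302 and 4973 CPM with artesunate, far apart. The effects were 0.14 ± 0.09 (adjusted p = 0.34) and 2.74 ± 0.09 (adjusted p = 7e-09), a difference of -2.60 ± 0.12 (GC-corrected -1.67). CREBRF, a regulator of the stress factor CREB3, and PELI2, a ubiquitin ligase of Toll-like receptor signalling, differed by -3.10 ± 0.19 (adjusted p = 1e-06) and -2.67 ± 0.16 (adjusted p = 1e-06), and SLC22A15, an organic ion transporter, by -2.64 ± 0.16. In the GC-corrected fit NAMPT, CREBRF and PELI2 were called up in U251 as well (0.34, 0.43 and 0.41, with differences of -1.67, -2.14 and -2.10), and SLC22A15 was called in U87 only. CREBRF went from 6.90, 6.22 and 6.40 to 75.7, 54.4 and 70.8 CPM in U87 and had 19.3, 20.4 and 17.3 CPM in the controls and 22.4, 21.8 and 24.2 CPM with artesunate in U251.

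Among those that fell in U87, CDT1 (ENSG00000167513, chromosome 16, 88803213 to 88809258), which loads the replicative helicase, held 70.4, 80.3 and 67.98 CPM in U87 controls and 5.40, 9.06 and 6.41 CPM with artesunate. U251 held 37.5, 33.7 and 31.2 CPM in the controls and 30.995, 31.1 and 28.97 CPM with artesunate, and no U251 artesunate library lay above the lowest control. Its difference was 3.22 ± 0.22 (adjusted p = 2.2e-06; GC-corrected 1.42). RAC3, a small GTPase, fell from 6.57, 7.19 and 6.40 to 0.365, 0.438 and 0.0641 CPM in U87, with 11.9, 10.5 and 11.96 CPM in the controls and 13.3, 12.9 and 11.1 CPM with artesunate in U251. ATAD3A, a mitochondrial inner membrane ATPase, and TUBB4B, a beta tubulin, differed by 3.37 ± 0.24 (adjusted p = 2.5e-06) and 2.81 ± 0.18 (adjusted p = 1.5e-06). RAC3, CDT1, ATAD3A and TUBB4B remained called above 0 in the GC-corrected fit, at 2.71, 1.42, 1.52 and 1.65, but CDT1 and TUBB4B were there called down in U251 too (-0.46 and -0.41).

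**Figure D4:**
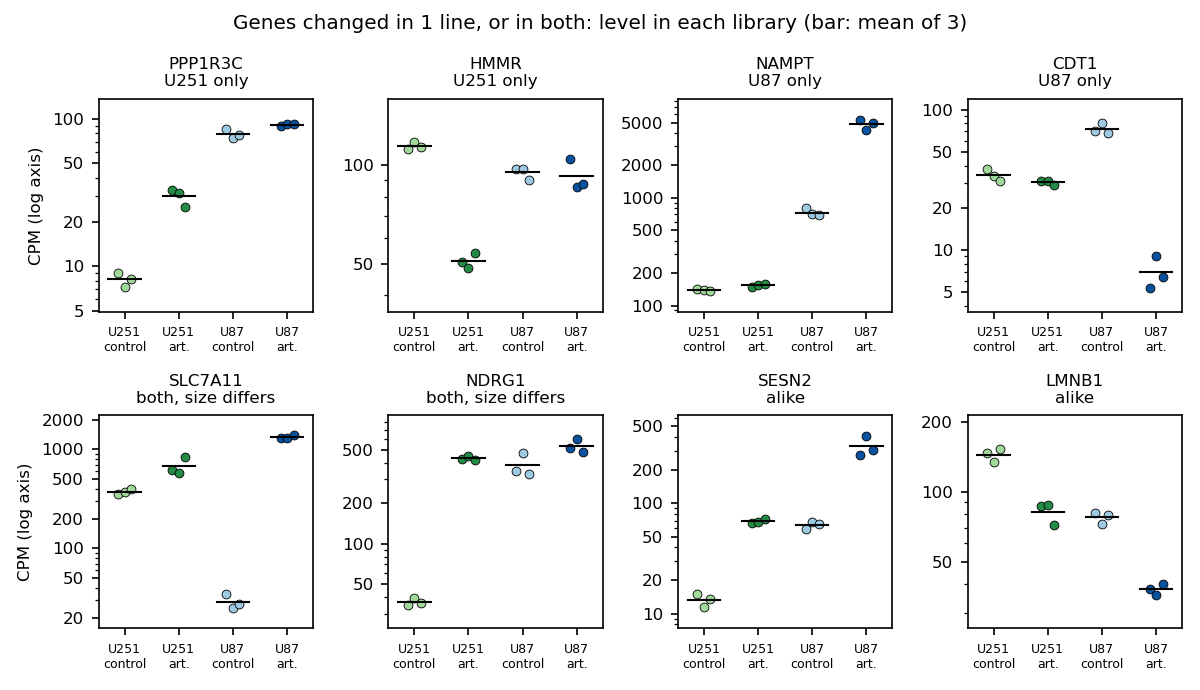
Level in each of the 12 libraries (CPM, log axis; points are libraries, bars are means of 3). PPP1R3C and HMMR were called in U251 only, NAMPT and CDT1 in U87 only, SLC7A11 and NDRG1 rise in both lines by different amounts, SESN2 rises and LMNB1 falls alike.

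Targets of p53, the stress-activated transcription factor that U87 is known to carry in its normal form and U251 as a mutant, were called in U87 only in 20 of 29 cases (69.0%, against 40.6% of all tested genes, and 71.4% of ribosome biogenesis, 68.0% of cholesterol synthesis and 66.7% of autophagy genes). In U87 19 rose (65.5%) and 7 fell (24.1%), against 29.2% each of all tested genes. In U251 4 rose (13.8%, against 4.09%) and none fell (DESeq2 3, unadjusted 4). On the difference 17 were below 0 (58.6%, against 25.3%) and 7 above (24.1%, the same share as all tested genes). The medians were 0 and 0.89, the median difference -1.04, and -0.70 with 19 below and 3 above in the GC-corrected fit. MDM2, the ubiquitin ligase of p53, rose from 101, 93.1 and 86.6 to 299, 255 and 261 CPM in U87 and had 130.4, 138 and 143 CPM in the controls and 113, 101 and 131 CPM with artesunate in U251, a difference of -1.79 ± 0.15 (adjusted p = 5.8e-06; GC-corrected -1.21). PMAIP1, the BH3-only death protein NOXA, had the largest difference below 0 at -2.44 ± 0.33 (adjusted p = 0.00011; GC-corrected -1.55) and BBC3, the BH3-only protein PUMA, the largest above 0 at 2.97 ± 0.72 (adjusted p = 0.0049), which was not called in the GC-corrected fit (0.76, adjusted p = 0.28). CDKN1A, the cell cycle inhibitor p21, was called in neither line (0.33 ± 0.20 and 0.43 ± 0.20), with 120.3, 131 and 134 CPM in the controls and 162, 179.8 and 144 CPM with artesunate in U251 and 185, 220.1 and 203 CPM in the controls and 203, 391 and 224 CPM with artesunate in U87. In the GC-corrected fit its difference was -1.06 (adjusted p = 0.0011).

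Genes that moved the same way by different amounts numbered 203, with 124 up and 79 down, of which the GC-corrected fit held 140 (417 in all). The number was 123, 113 and 116 without U251 control 1, 2 and 3, 110, 118 and 134 without U251 artesunate 1, 2 and 3, and 327 without U87 artesunate 2. SLC7A11 (ENSG00000151012, chromosome 4, 138164097 to 138242349), the cystine importer that feeds glutathione synthesis, held 356, 368 and 399 CPM in the U251 controls and 619, 581 and 843 CPM with artesunate. U87 held 34.7, 24.8 and 27.3 CPM in the controls and 1295, 1299 and 1387 CPM with artesunate. U87 controls lay below U251 controls and U87 artesunate libraries above U251 artesunate libraries. The effects were 0.86 ± 0.14 and 5.52 ± 0.17, and the difference -4.66 ± 0.21 (adjusted p = 2.9e-07; GC-corrected -3.69) was the largest of the class among the genes that qualified for naming. CTH, the enzyme that makes cysteine from cystathionine, and KDM7A, a histone demethylase, also rose more in U87, by 3.69 ± 0.14 against 0.96 ± 0.13 and by 2.84 ± 0.14 against 0.56 ± 0.13 (GC-corrected differences -2.23 and -1.47). NDRG1 (ENSG00000104419, chromosome 8, 133237171 to 133302022), a hypoxia-induced growth regulator, rose more in U251. It held 35.1, 39.4 and 36.1 CPM in the U251 controls and 428, 446 and 421 CPM with artesunate, and 349.5, 469.8 and 332 CPM in the controls and 512, 599.9 and 480.3 CPM with artesunate in U87, a difference of 3.08 ± 0.18 (adjusted p = 1e-06; GC-corrected 2.76).

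HMOX1, the heme-degrading oxygenase, rose from 36.4, 33.7 and 28.4 to 201, 221 and 213 CPM in U251 and from 141, 147 and 157 to 368, 569.8 and 432 CPM in U87. Its difference of 1.07 ± 0.20 (adjusted p = 0.0011) was 0.09 (adjusted p = 0.7) in the GC-corrected fit, where it was called alike. DDIT3, the stress factor CHOP, rose by 1.08 ± 0.13 and 2.02 ± 0.13, a difference of -0.94 ± 0.18 (adjusted p = 0.001; GC-corrected -0.96).

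Of 52 tested genes of the integrated stress response (54 listed) 39 rose in U251 (75%) and 43 in U87 (82.7%), against 4.09% and 29.2% of all tested genes. None fell in U251 (nor by DESeq2 or unadjusted), against 4.26% of all tested genes, and 3 fell in U87 (5.77%, against 29.2%). On the difference 22 were below 0 (42.3%) and 9 above (17.3%), against 25.3% and 24.1%. Thus 18 moved the same way by different amounts, 5 were alike and 10 moved the same way with the size unresolved. These classes held 1.18%, 1.01% and 0.636% of all tested genes. The medians were 0.89 and 1.37, and the median difference was -0.41 (-0.27 without U87 artesunate 2), or -0.85 with 32 below and 4 above in the GC-corrected fit. ASNS, asparagine synthetase, rose from 61.9, 69.7 and 74.6 to 140.0, 140.2 and 158 CPM in U251 and from 66.5, 66.2 and 66.1 to 530.4, 460.1 and 593 CPM in U87, a difference of -1.91 ± 0.15 (adjusted p = 3.9e-06). CHAC1, which degrades glutathione, had 2.35 ± 0.38 in U251 and 2.34 ± 0.39 in U87 with a wide interval of the difference (-1.21 to 1.23), and -1.42 in the GC-corrected fit. CEBPB, the C/EBP beta factor, was the 1 opposite member (1.01 ± 0.13 and -0.86 ± 0.13), and in the GC-corrected fit its effects were 0.70 and 0.80.

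Of 33 NRF2 targets 18 rose in U251 (54.5%) and 24 in U87 (72.7%), against 4.09% and 29.2% of all tested genes. On the difference 16 were below 0 (48.5%) and 6 above (18.2%), against 25.3% and 24.1%. The median difference was -0.39, and -0.70 with 21 below and 1 above in the GC-corrected fit. SLC7A11 and HMOX1, above, belong to this list as well. NQO1, the quinone reductase, rose from 989, 878 and 922 to 1248, 1305 and 1351 CPM in U251 and from 142, 142 and 143 to 587, 495 and 549.8 CPM in U87, a difference of -1.45 ± 0.11 (adjusted p = 3.1e-06; GC-corrected -1.18). OSGIN1, an oxidative stress-induced growth inhibitor, had the largest difference above 0, 1.87 ± 0.40 (adjusted p = 0.0023), which was 0.32 (adjusted p = 0.3) with correction. In U87 its artesunate libraries (24.2, 57.6 and 23.4 CPM) lay on both sides of the controls (32.3, 37.5 and 32.9 CPM).

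The replication and G1/S genes declined in both lines, by more in U87. Of 48 tested members 30 fell in U251 and 45 in U87, none rose (nor by DESeq2 or unadjusted), 23 fell in both by different amounts, and 35 differed above 0 and 1 below. Falls were 62.5% in U251 and 93.8% in U87, against 4.26% and 29.2% of all tested genes, of which 0.461% fell in both by different amounts. The list's shares above and below 0 were 72.9% and 2.08%, against 24.1% and 25.3%. The medians were -0.46 and -1.40, and the median difference of 0.94 was 0.89 in the GC-corrected fit, with 36 above and none below (without correction 2 were below by DESeq2 and 3 at an unadjusted p under 0.05). MCM5, a subunit of the replicative helicase, fell from 107, 98.4 and 98.5 to 78.9, 81.6 and 76.3 CPM in U251 and from 252, 296 and 279.6 to 35.3, 44.1 and 39.7 CPM in U87, a difference of 2.44 ± 0.14 (adjusted p = 8e-07; GC-corrected 1.53). MCM7, of the same ring, and UHRF1, which carries DNA methylation through replication, differed by 2.00 ± 0.15 (adjusted p = 3.7e-06; GC-corrected 1.04) and 2.27 ± 0.25 (adjusted p = 2.8e-05; GC-corrected 1.65). PCNA, the replication clamp, fell by 0.66 ± 0.08 and 0.67 ± 0.08 on the log2 scale, alike before correction (GC-corrected difference 0.36, adjusted p = 0.0052), and RPA3, the small subunit of the single-strand binding protein, was the 1 member below 0 (-0.49 ± 0.16, adjusted p = 0.021; -0.20, adjusted p = 0.23 with correction).

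Genes that moved alike numbered 173, with 70 up and 103 down, where alike means called in both lines with 1 sign and a 95% interval of the difference within 1.5-fold. The GC-corrected fit held 51 of them (331 in all), and the number was 101 and 112 without U251 control 2 and 3 and 109 and 115 without U251 artesunate 1 and 2. SESN2 (ENSG00000130766, chromosome 1, 28259527 to 28282491), a leucine sensor upstream of mTORC1, held 14.95, 11.4 and 13.5 CPM in the U251 controls and 65.9, 68.4 and 71.9 CPM with artesunate, and 59.03, 68.2 and 65.2 CPM in the controls and 275, 405 and 306 CPM with artesunate in U87. The effects were 2.37 ± 0.15 and 2.36 ± 0.14, and the difference had an interval of -0.41 to 0.44, but was -1.15 (adjusted p = 5.3e-05) in the GC-corrected fit. ATF4 itself (ENSG00000128272, chromosome 22, 39519695 to 39522685) held 143, 132 and 129 CPM in the U251 controls and 375, 371 and 370.3 CPM with artesunate, and 160.4, 172 and 174 CPM in the controls and 518, 565 and 558 CPM with artesunate in U87. Its effects were 1.46 ± 0.07 and 1.70 ± 0.07, with a difference of -0.23 ± 0.10 (adjusted p = 0.062; interval -0.44 to -0.02), and of -1.07 (adjusted p = 1.4e-05) with correction. NUPR1, a small stress-induced chromatin protein, rose by 1.87 ± 0.14 and 1.72 ± 0.13 and was alike in both fits (GC-corrected difference 0.02). TXNIP, the thioredoxin-binding inhibitor of glucose uptake, rose by 1.20 ± 0.10 and 1.13 ± 0.10, with 0.50 (adjusted p = 0.01) for the corrected difference.

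LMNB1, the lamin B1 of the nuclear envelope, fell from 147, 134 and 152 to 86.6, 87.4 and 72.1 CPM in U251 and from 81.1, 72.7 and 79.5 to 38.1, 36.2 and 40.3 CPM in U87. Its difference was 0.21 ± 0.14 (interval -0.09 to 0.51; GC-corrected 0.01), and it was alike in both fits. KIF15, a mitotic kinesin, BRIP1, a DNA repair helicase, and PLAU, the urokinase protease, were alike before correction, with differences of -0.07 ± 0.19, 0.21 ± 0.17 and 0.22 ± 0.12. With correction their differences were called at 0.56, 1.06 and -0.29. TFRC, the transferrin receptor, rose by 0.34 ± 0.08 and 0.49 ± 0.08 (interval of the difference -0.38 to 0.09; 0.46 with correction). GPX4, which reduces lipid peroxides, was called in neither line (0.24 ± 0.15 and -0.26 ± 0.15), with a difference of 0.50 ± 0.21 (adjusted p = 0.07), and of -1.02 (adjusted p = 0.0012) with correction.

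Metallothioneins and zinc export genes rose mainly in U87. Of 9 tested members (13 listed) 7 rose in U87 and 2 in U251, and 6 differed below 0 and none above, also by DESeq2 and unadjusted. The rises were 77.8% and 22.2%, against 29.2% and 4.09% of all tested genes. Below 0 were 66.7%, against 25.3%, and 24.1% of all tested genes were above. The list's median difference was -1.94, and -1.10 with correction. MT1F, a metal-binding protein whose close relatives may share reads, went from 19.5, 21.3 and 20.4 to 102, 102 and 102 CPM in U87 and had 8.14, 8.03 and 8.08 CPM in the controls and 9.26, 9.79 and 8.52 CPM with artesunate in U251, a difference of -2.14 ± 0.12 (adjusted p = 8.8e-07; GC-corrected -3.16). SLC30A1, the zinc exporter, rose in both lines, by 0.55 ± 0.10 and 2.49 ± 0.11 (GC-corrected difference -1.10).

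Of the 13 mRNAs of the mitochondrial genome 9 fell in U87, none was called in U251 (nor by DESeq2 or unadjusted), and 5 differed above 0. The falls in U87 were 69.2% and the share above 0 was 38.5%, against 29.2% and 24.1% of all tested genes. The list's median difference was 0.93, and 1.26 with correction, where 6 differed above. Without U87 artesunate 2 all 13 fell in U87 and 12 differed above 0, with a median difference of 1.52. MT-CO3, a subunit of cytochrome oxidase, stood at 5430.2, 4948 and 5031 CPM in U87 controls and 1148, 2074 and 1222 CPM with artesunate, with artesunate 2 the highest of these. U251 held 4394, 4333 and 3928 CPM in the controls and 3862, 3763 and 3845 CPM with artesunate. The difference was 1.65 ± 0.25 (adjusted p = 0.00022; GC-corrected 1.85). The library U87 artesunate 2 also had the weakest relation to GC content of the 3 U87 artesunate libraries (-0.488), and whether this library differed in treatment or handling was not tested.

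Of 29 interferon response genes (30 listed) 6 fell in U251 and none rose (DESeq2 2, unadjusted 2), 8 rose and 6 fell in U87, and 9 differed below 0 and 2 above. The falls in U251 were 20.7%, against 4.26% of all tested genes, and those in U87 were 20.7%, against 29.2%. The shares up in U87 (27.6%) and below 0 (31%) were near those of all tested genes (29.2% and 25.3%). Above 0 were 6.90%, against 24.1% (median difference -0.37, and -0.33 with correction). The 4 opposite members fell in U251 and rose in U87, as did 1.38% of all tested genes, and 2 of the 4 kept this class with correction.

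Ribosome biogenesis genes fell in U87 (22 of 35, with 5 up) and 1 fell in U251 (2.86%, against 4.26% of all tested genes), and 20 differed above 0 and 6 below. In U87 62.9% fell and 14.3% rose, against 29.2% each of all tested genes. The shares above and below 0 were 57.1% and 17.1%, against 24.1% and 25.3%. The list's median difference was 0.59, and 0.43 with 18 above and 1 below with correction. BOP1, a factor of the large ribosomal subunit, differed by 2.79 ± 0.20 (adjusted p = 2.5e-06; GC-corrected 0.94). Of 36 autophagy and lysosome genes 20 rose and 10 fell in U87, 5 rose in U251 (13.9%, against 4.09% of all tested genes), and 16 differed below 0 and 12 above. In U87 55.6% rose and 27.8% fell, against 29.2% each of all tested genes, and 44.4% differed below 0 and 33.3% above, against 25.3% and 24.1%. With correction this was 20 below and 2 above, with the median going from -0.46 to -0.53. MAP1LC3B, the autophagosome protein LC3B, which has a near copy, went from 109.7, 92.9 and 52.2 to 694, 288 and 639 CPM in U87 and had 127, 162 and 86.3 CPM in the controls and 204, 109 and 209 CPM with artesunate in U251, with overlapping groups in U251. Of 18 tested iron genes (24 listed) 10 differed below 0 and 2 above (6 and 3 with correction). Before correction these were 55.6% and 11.1%, against 25.3% and 24.1% of all tested genes. CYBRD1, a ferric reductase, was among those below 0, at -1.69 ± 0.15 (adjusted p = 7.2e-06), or -1.08 in the GC-corrected fit.

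Of the remaining lists, 4 are given by their counts, chosen after their values were seen, to be read against 24.1% of all tested genes above 0 and 25.3% below. YAP and TGF-beta targets had 13 of 23 (56.5%) above 0 and 2 (8.70%) below (11 and 2 with correction), with LTBP2, a matrix protein that binds latent growth factors, at 3.32 ± 0.32 (adjusted p = 1.5e-05; GC-corrected 2.44). Ferroptosis and lipid peroxidation genes had 3 of 28 (10.7%) above and 12 (42.9%) below (4 and 13 with correction). Endoplasmic reticulum chaperones had 4 of 29 (13.8%) above and 13 (44.8%) below (2 and 10 with correction), with DNAJB9, a co-chaperone of BiP, at -1.99 ± 0.14 (adjusted p = 2.1e-06; GC-corrected -1.30). Splicing factors had 8 of 25 (32.0%) above and 8 below, near the share of all genes, and 16 above and 1 below with correction (median difference 0.16 and 0.86). The other 12 lists had median differences between -0.31 and 0.36.

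**Figure D5:**
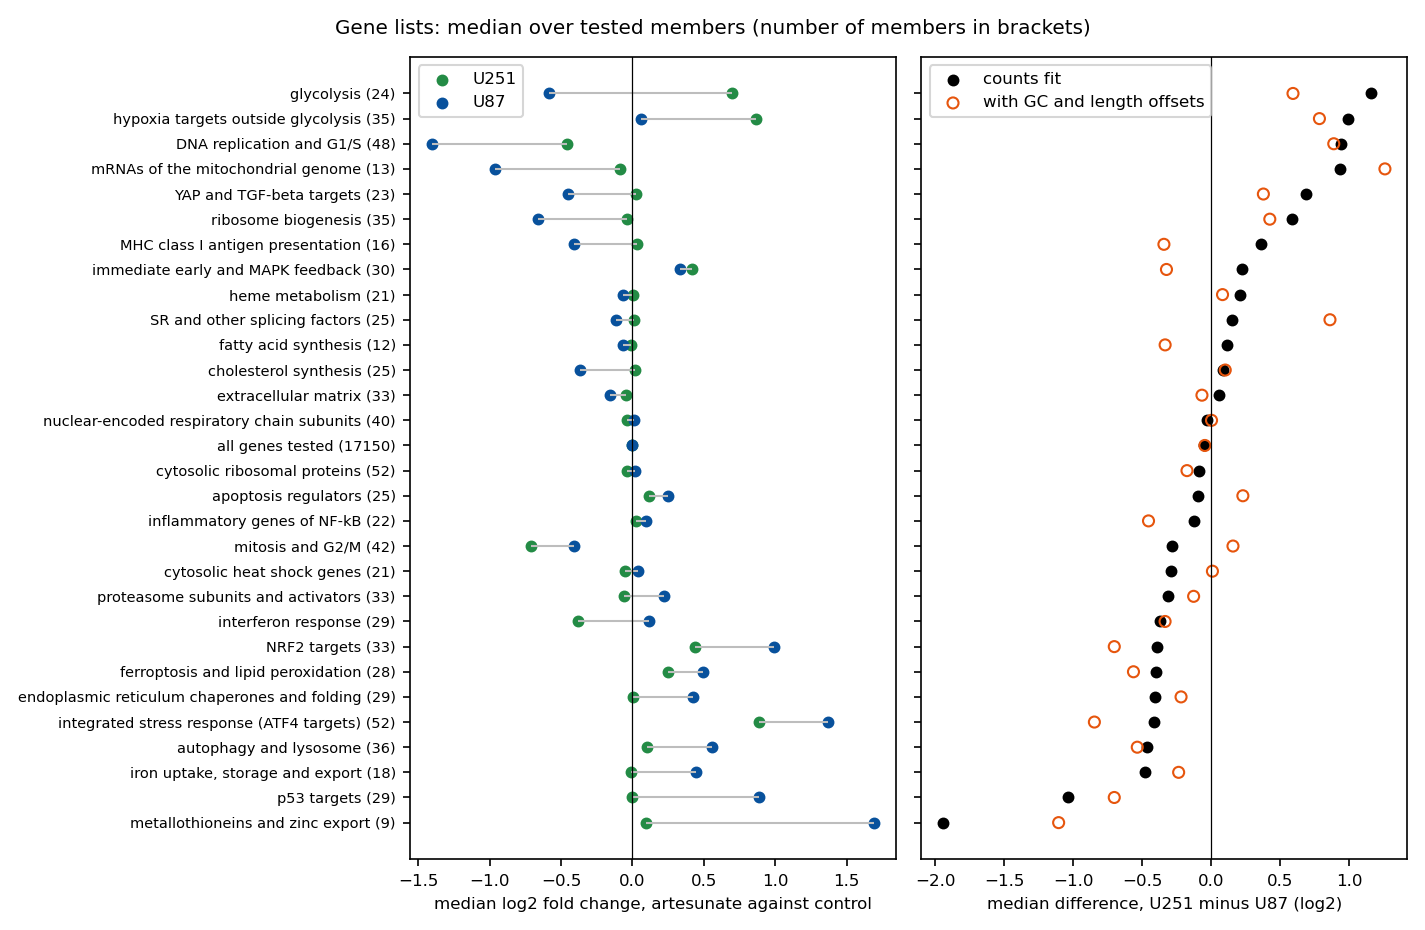
Left, median log2 fold change over the tested members of 29 gene lists and over all 17150 genes in U251 and U87; right, median difference (U251 minus U87) from the counts fit and from the fit with GC and length offsets. In the counts fit glycolysis has the highest median difference, 1.16, and metallothioneins the lowest, -1.94; with the offsets the mRNAs of the mitochondrial genome are highest at 1.26 and glycolysis is at 0.59, while mitosis and G2/M and several other lists change sides between the fits.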

How the data were processed

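RNA from 12 libraries of U251 and U87 cells was measured by sequencing. Per the submitters' processing notes, reads were cleaned with fastp, aligned with HISAT2 2.1.0 and quantified with StringTie 1.3.3b, and edgeR 3.30.3 was used. The step that made the deposited counts, and whether strand was used, are not given in the sources used here, so overlapping genes and near-identical copies are uncertain. The deposited counts were whole numbers per gene, and the authors' deposited FPKM columns entered only alternatives, as log2 of FPKM plus a pseudocount.

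Genes were filtered with filterByExpr (minimum count 10, minimum total 15) and scaled by TMM in edgeR 4.0.16 (R 4.3.3), and a quasi-likelihood fit with 1 mean for each of 4 groups gave the effect in each line and their difference. P-values were adjusted by Benjamini-Hochberg over 17150 genes, and calls are at an adjusted p under 0.05. Levels are CPM, counts per 1000000 of the TMM-scaled library, computed from the deposited counts, and ± is the standard error of a log2 fold change. Classes were read from that fit: opposite, called in both with opposite signs; 1 line, called there, not in the other, with the difference called; alike, with the interval of the difference within 1.5-fold. The GC-corrected fit used loess offsets per library for GC content and length from the GENCODE 29 annotation, known for 99.64% of tested genes. Replicate numbers were checked for pairing, which was neither shown nor excluded, and the main fit did not pair the libraries.

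Named genes were protein-coding, at 5 CPM or more in the higher group of each line, and separated in every library of a line that was called. Per class and direction the 4 with the largest changes were taken, for 1 line only where the other line's interval lay within 1.5-fold, with the extreme members of each list and 9 genes of interest. Other members named, the order of lists and the promoter elements printed were chosen after their values were seen. The members and the 36 lists (29 of pathways and 7 of markers) were chosen with earlier results of these data known. Promoter windows came from RefSeq and were matched by symbol. The alternatives were total-count scaling, DESeq2 1.42.0, no filter, limma 3.58.1 with voom or on log2 FPKM, GC and length offsets, a replicate block, other margins, and leaving out each library. Scripts were tested on simulated data.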

Additional observations from a re-analysis of the deposited data

Results flagged for a closer look

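Every result here is a difference between the lines in the effect of artesunate (U251 minus U87, log2) that passed the test of the difference itself, the interaction contrast. Such a difference was found for 8478 genes, and the dose differed with the line, so the share of line and dose cannot be told apart. Groups of 3 libraries were too few for a test of the gap between 1 library and the rest, and each library was left out in turn instead.

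Above 0 among genes opposite in the lines were TCAF2C at 5.05, PPFIA4 at 4.50, CA9 at 4.35, PFKFB4 at 3.71, ANGPTL4 at 3.68, VEGFA at 3.43 and CEBPB at 1.88. Below 0 in that class were RHOQ at -4.34, SAMD9L at -2.32, TRIM22 at -2.19 and RNF114 at -2.17.

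Genes called in U251 only differed by 1.70 (DDIT4), 1.66 (PPP1R3C), 1.24 (RDH10), 1.14 (HTR7), -1.13 (HMMR), -1.11 (CEP41), -1.04 (PRTFDC1) and -1.02 (KIF18A). Of the genes named for a change in U87 only, RAC3 differed by 4.66, ATAD3A by 3.37, CDT1 by 3.22, TUBB4B by 2.81, CREBRF by -3.10, PELI2 by -2.67, SLC22A15 by -2.64 and NAMPT by -2.60. Genes that moved 1 way by different amounts included NDRG1 at 3.08, MCM5 at 2.44, HMOX1 at 1.07, DDIT3 at -0.94, KDM7A at -2.28, CTH at -2.74 and SLC7A11 at -4.66.

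Other list members named, whatever their class, were SLC16A3 at 3.96, LTBP2 at 3.32, BBC3 at 2.97, BOP1 at 2.79, UHRF1 at 2.27, MCM7 at 2.00, OSGIN1 at 1.87, MT-CO3 at 1.65 and CENPA at 1.34 above 0. Below 0 they were RPA3 at -0.49, BNIP3L at -1.22, CYBRD1 at -1.69, DNAJB9 at -1.99, MT1F at -2.14, MAP1LC3B at -2.19 and PMAIP1 at -2.44.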

How the results depend on the processing

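Offsets for GC content and length gave 2400 differences above 0, 2769 below, 255 opposite genes, 4020 called in U87 only, 331 alike and 417 of different size. That setting turned the sign of 12 named differences called there or as reported: SESN2 to -1.15, KIF15 to 0.56, PLAU to -0.29, CEBPB to -0.10, FASN to -0.22, IRF7 to -0.26, SKIL to 0.20, CLK1 to 0.063, TUBB3 to -0.026, CHAC1 to -1.42, GPX4 to -1.02 and TFRC to 0.46. Opposite genes numbered 986 by DESeq2, 1261 by voom with a spread for each line, 273 with no filter and 42 with both changes at least 2-fold. Genes called in U251 only numbered 555 by voom, 180 with no filter, 521 on log2(FPKM + 1) and 515 on that scale with no filter. Genes of different size numbered 334 by voom and 119 with no filter, and alike genes 299 on log2(FPKM + 1). The cause was not tested. Leaving out 1 library gave 164 to 1280 opposite genes, 161 to 404 called in U251 only, 6357 to 6949 in U87 only, 101 to 215 alike, 110 to 327 of different size, 3747 to 4613 above 0 and 3831 to 4701 below. Differences near 0 and not called changed sign elsewhere too: KIF15 was 0.0103 with no filter, and on log2(FPKM + 1), with or without a filter, SESN2 was -0.126, NUPR1 -0.306 and KIF15 0.034, while CDKN1A was 0.0016 on log2(FPKM + 0.1). Without 1 library SESN2 ran from -0.0993 to 0.196, KIF15 from -0.172 to 0.0649, TXNIP from -2e-04 to 0.192, CHAC1 from -0.244 to 0.623 and CDKN1A from -0.267 to 0.263. Over all settings the named differences kept direction and side of the threshold in 1998 cases, lost the call in 63, gained it in 13 and turned in 35.

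Deviations of same-numbered control and artesunate libraries correlated at 0.041, 0 and 0.038 in U251 and 0.053, 0.05 and -0.009 in U87. Libraries of unlike number ran from -0.056 to 0.019 in U251 and from -0.085 to 0.044 in U87. No test was run, and values this small neither show nor exclude a pairing by number. With the replicate block the counts were 473 opposite, 155 alike, 237 in U251 only, 6929 in U87 only, 160 of different size, 4096 above 0 and 4221 below.

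With 3 libraries a group, classes that need a call in U251 depend on its few calls, and a gene outside a class is not shown to be unchanged. Low genes are limited by counts: 318 genes called in U87 only were below 1 CPM in U251.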
